A study of Danio rerio with 3 samples.

Results

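Cytosolic ribosomal protein genes were followed across the cell classes of the adult zebrafish telencephalon. The members were all listed genes whose symbol starts with *rps* or *rpl* and a digit, without the *rps6k* kinase genes, together with *rplp0*, *rplp1*, *rplp2*, *rplp2l*, *rpsa*, and *faua*. The rule gave 87 of the 29077 genes listed, 49 of the large and 38 of the small ribosomal subunit. Symbols in upper case, such as *RPL41*, were counted as members. Every member was found in the table of gene names, but *RPL41* and the second gene listed as *rpl37* (ENSDARG00000076360) have other names there. The latter is named *COA1*, and whether it codes for a ribosomal protein was not settled. The symbols deposited with the counts were kept. Of the members, 2, *rps19bp1* and *rpl7l1*, carry such a symbol without being structural proteins of the ribosome. No member row stood for the proteins Rpl27a, Rpl37a, and Rpl40.

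Single-cell RNA sequencing was run on dissected telencephala of Tg(Sox2:gfp) fish of 12 weeks. In this line GFP follows *sox2*, which is active in neural stem cells (NSCs) and intermediate progenitors. All fish had been bathed in LY (LY-411575), an inhibitor of gamma-secretase that blocks Notch signaling. The study's methods give 24 hours of LY and the description deposited with the data 48 hours. The methods describe a cut along the border of pallium and subpallium that enriched pallial cells, and a separate sorting day with 20 pooled fish for each of the 3 replicates. GFP-positive cells were enriched while GFP-negative ones were kept, so the sort set the share of cells in each class. Every class described below is thus from LY-treated fish, and untreated samples were not analysed here.

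Each ribosome has a small subunit, which reads the mRNA, and a large subunit, which joins amino acids. Vertebrate ribosomes take up most of these proteins in equal numbers, and their mRNAs share a pyrimidine-rich start (the terminal oligopyrimidine motif) through which mTOR signaling sets their translation. In the mouse brain, quiescent NSCs are known for low protein synthesis and activated NSCs and early progenitors for high protein synthesis. Ribosomal protein mRNAs are abundant and short, and in droplet libraries they take a large share of the unique molecular identifiers (UMIs, each standing for a captured mRNA molecule).

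The 3 libraries held between 5349 and 8143 barcodes and between 12104324 and 15050320 UMIs, with medians of 1541 to 1676 UMIs per cell. Between 53 and 71 barcodes were shared by any pair of libraries. After filtering, 17842 cells were kept, and 10920 of them fell into 9 classes set by UMIs of marker genes that include no ribosomal protein gene. Markers outside the rules of assignment followed the labels in most classes. *id1*, a marker of radial glia, was seen in 70.5% to 78.9% of radial glia and in 10.2% to 12.4% of mature neurons, and *atp1a3a*, a neuronal pump subunit, in 6.64% to 8.63% and 62.1% to 67.3%. The neuronal gene *elavl3* was seen in 96.3% to 100% of neuroblasts, the myelin gene *cldnk* in 75.9% to 90.2% of mature oligodendrocytes, and *mpeg1.1* in 65.8% to 78.7% of macrophages. Newborn neurons had *elavl3* in 86.4% to 96.9% of cells. *sox11a*, also read for neuroblasts and newborn neurons, was seen in 79.1% to 90.7% and 26.0% to 37.1%. Radial glia had it in 34.9% to 46.8%, so *sox11a* did not set newborn neurons apart from them. *eno2*, read for mature neurons, was seen in only 24.3% to 32.3% of these. Cycling cells without glial markers are cycling cells that missed the assigning genes of radial glia (*cx43*, *slc1a2b*, *gfap*, *s100b*). Of these cells 93.8% to 96.4% nonetheless carried *fabp7a* and 26.7% to 44.1% *id1*, so their name describes the rule and not an absence of glial mRNA. *elavl3* was also seen in 71.3% to 75% of mature oligodendrocytes. Oligodendrocyte precursor cells (OPCs) rested on their assigning genes alone, as *vcana*, the other marker read, was at 0 in them. The glial gene *fabp7a*, seen in 90.5% to 96.4% of radial glia, was also seen in 70.7% to 85.8% of OPCs and 41.2% to 53.2% of mature neurons, and the part of free RNA in these values and in the ribosomal protein UMIs was not tested.

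The share of UMIs in ribosomal protein genes differed several-fold between classes. To set all cells at the same depth, each cell was thinned to 1000 UMIs, cells with fewer being left out, and values are means ± SD of the 3 replicates (n = 3). Cycling cells without glial markers were highest at 24.3% ± 2.2, followed by neuroblasts at 22.2% ± 1.73 and cycling radial glia at 20.2% ± 2.72. Macrophages reached 16.7% ± 1.0, newborn neurons 14.2% ± 3.07, and noncycling radial glia 13.8% ± 1.52. Mature neurons at 5.71% ± 0.354, mature oligodendrocytes at 5.27% ± 0.790, and OPCs at 3.80% ± 0.415 formed a low group. Every neighbour in this order was higher than the next in all 3 replicates, with the exception of newborn neurons and radial glia, which differed by 0.403 ± 1.57 percentage points, the first being higher in 2 of 3 replicates. That order turned at 500 UMIs per cell, where newborn neurons gave 13.9, 9.07, and 12.3% and radial glia 14.4, 11.9, and 14.1%, and with each cell weighted equally, where the means were 11.8% and 13.5%. The mean step between macrophages and newborn neurons, 2.52 ± 2.44 points, was close to its SD, and that between mature neurons and mature oligodendrocytes, 0.442 ± 0.637, was within it. With stricter markers (minimums raised by 2 UMIs) the first of these steps was reversed in replicate 3 and the other in replicates 1 and 3, and without thinning the other was reversed in replicate 1. No p is given for these steps, because the smallest that exact sign flips of 3 paired values allow (two-sided) is 0.25.

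**Figure D1:**
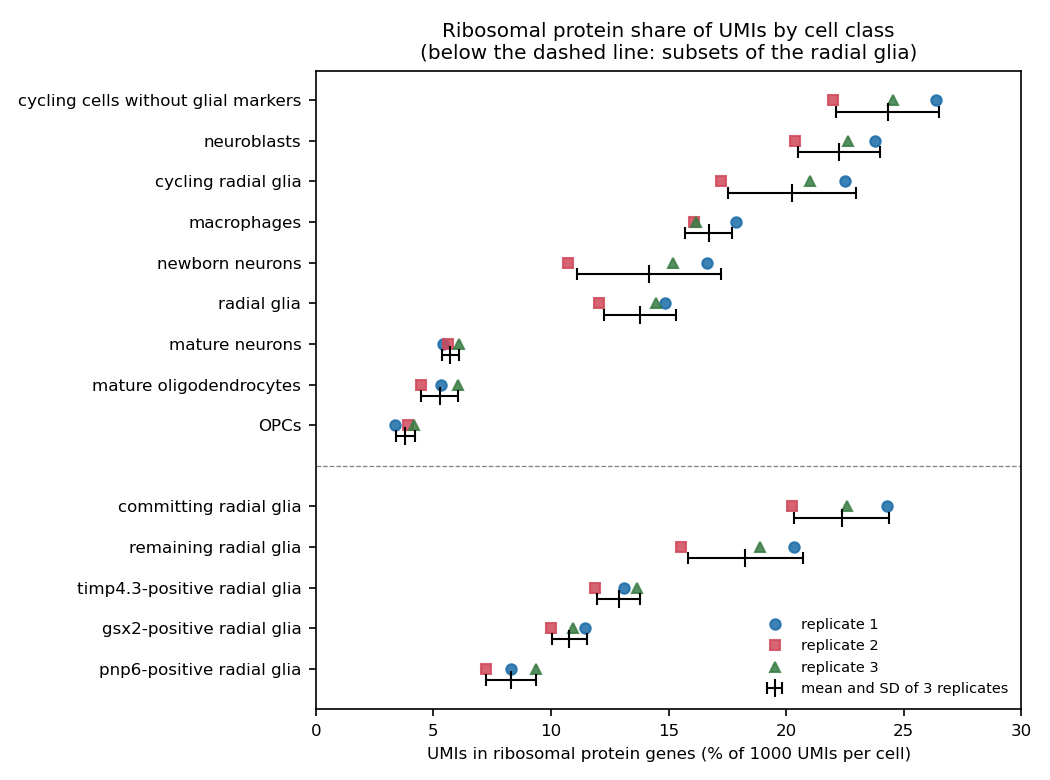
UMIs in ribosomal protein genes as percent of 1000 UMIs per cell (x axis) in each replicate (points), with mean and SD of the 3 replicates (bars), for 9 classes and, below the dashed line, 5 subsets of the radial glia. Cycling cells and neuroblasts have means above 20%, noncycling radial glia lie at 13.8%, and mature neurons and the oligodendrocyte lineage have means below 6%. Replicate 2 is lowest in every class except mature neurons and OPCs.

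Replicate 2 was the lowest library in every class except mature neurons and OPCs. In neuroblasts the 3 replicates gave 23.8, 20.4, and 22.6%, in cycling radial glia 22.5, 17.2, and 21.0%, and in radial glia 14.8, 12.0, and 14.5%. Mature neurons, at 5.40, 5.63, and 6.10%, did not have this order, so the differences below were taken within replicates. Radial glia exceeded mature neurons by 8.07 ± 1.53 points, a ratio of 2.42 ± 0.31. Neuroblasts exceeded radial glia by 8.47 ± 0.404 points in turn, and newborn neurons were below neuroblasts by 8.07 ± 1.36 points. Along the path from radial glia over neuroblasts to neurons, the share therefore went up and then down again, with mature neurons lowest in every replicate.

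Other measures also differed between classes. Mitochondrial UMIs made up 3.46% in mature neurons and 2.71% in OPCs, against 1.62% in radial glia and 1.20% in cycling cells without glial markers. With mitochondrial UMIs left out, the shares were 5.92%, 3.91%, 14.0%, and 24.6%, so these 4 classes kept their order. Macrophages went from 16.7% to 17.1% and mature oligodendrocytes from 5.27% to 5.34%. The mitochondrial part thus did not fall as the share rose in every class. Depth had no common direction across classes. Radial glia with 1000 to 1500 UMIs gave 14.9% ± 1.58 after thinning and those with more than 2500 gave 11.4% ± 1.99, whereas OPCs went from 2.92% ± 0.424 to 6.98% ± 0.211 and mature neurons from 4.69% ± 0.197 to 6.41% ± 1.01. Without thinning, the means were 24.3% in cycling cells without glial markers, 22.1% in neuroblasts, 12.9% in radial glia, 5.86% in mature neurons, and 4.27% in OPCs. Among cells with at least 2500 UMIs, OPCs gave 6.97, 6.77, and 7.19% after thinning and mature neurons 5.54, 6.17, and 7.52%. OPCs were thus the higher of these 2 classes there in replicates 1 and 2. Beyond these values the part of depth was not tested.

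Cells of a class were also unlike each other. In neuroblasts the 10th percentile of cells averaged 17.01% and the 90th 27.06%, so most cells lay above the 90th percentile of mature neurons. In radial glia the same percentiles were 4.73% and 23.0% around a median cell of 13.7%. The upper end reached the median cell of neuroblasts, 22.7% on average, although not in replicate 2 (19.46% against 20.65%). The lower end lay above the median cell of mature neurons in each replicate, so the span took in only the upper part of that class. Newborn neurons spanned 4.49% to 23.1%. Mature neurons had a median cell of 4.10% and a 90th percentile of 11.5%, and OPCs one of 2.83% and 6.29%. In macrophages, with 27, 49, and 27 cells of at least 1000 UMIs, these percentiles were 11.2% and 22.8%.

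**Figure D2:**
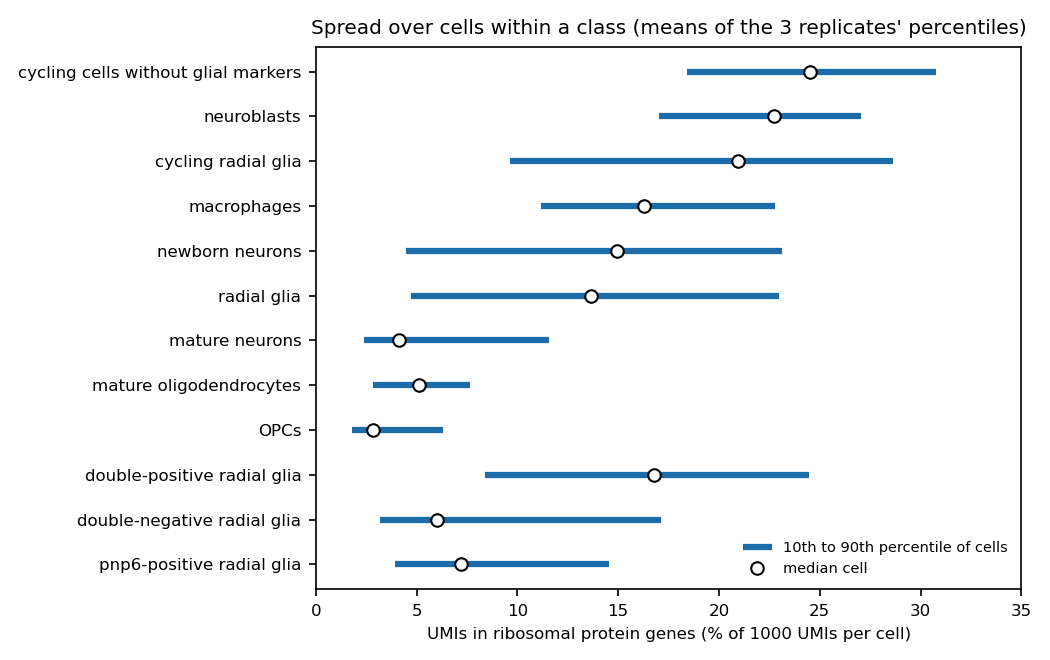
Percent of 1000 UMIs per cell in ribosomal protein genes (x axis), with the median cell (circle) and the span from the 10th to the 90th percentile of cells (bar), each averaged over the 3 replicates. Radial glia span 4.73% to 23.0%, neuroblasts 17.01% to 27.06%, and mature neurons stay mostly below 11.5%.

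The members shared most of this course. Of the 86 members with at least 100 UMIs in the classes, 72 were highest in cycling cells without glial markers and 8 in neuroblasts, and 81 were lowest in OPCs. These counts, too, describe levels with no test, and the same counts over all genes were not made. The low place of OPCs varied with the depth of the cells, as given above. The large subunit took 60.5% ± 0.306 of the ribosomal protein UMIs in radial glia, 60.8% ± 0.173 in neuroblasts, 61.0% ± 0.233 in mature neurons, and 60.7% ± 1.12 in OPCs, so the balance of the subunits differed by less than a percentage point between these classes while the sum differed several-fold. Mature oligodendrocytes stood lowest at 59.3% ± 0.430. The 5 members with most UMIs were *RPL41* (the smallest protein of the large subunit), *rps20* (head of the small subunit), *rplp1* (an acidic protein of the stalk that recruits elongation factors), and *rpl32* and *rpl37* (large subunit). Together they took 18.3% ± 0.745 of the ribosomal protein UMIs in radial glia, 19.7% ± 0.790 in cycling cells without glial markers, and 15.7% ± 0.214 in mature oligodendrocytes. The counts come from 3′ ends, with at most a tag per molecule, and are not scaled by transcript length. They rank genes by UMIs, and differences in capture between genes were not tested.

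*RPL41* shows the common course. In CPM (UMIs of the gene scaled to a common total of UMIs per sum) it gave 11242, 8587, and 9586 in radial glia of replicates 1, 2, and 3, 17732, 16707, and 16218 in neuroblasts, and 12325, 7831, and 11304 in newborn neurons. In mature neurons it stood at 3972, 4301, and 4361 and in OPCs at 2731, 3323, and 3158. Neuroblasts lay above radial glia, and radial glia above mature neurons, without overlap. *rps20* followed with a wider range, from 996, 1099.7, and 1105 in OPCs and 1440.0, 1563, and 1600.0 in mature neurons over 4581, 3591, and 3905 in radial glia to 10361, 8455, and 8476 in cycling cells without glial markers. At the other end, *rps8b* had 116 UMIs in all cells together and was the member that passed the filter on low counts in none of the 10 comparisons, its paralogue *rps8a* taking nearly all UMIs of the pair.

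To ask which members differed between radial glia and mature neurons, UMIs were summed per replicate and class and tested with edgeR over all genes, with the replicate as a block. The ± after a log2 fold change is a standard error derived from the test statistic of this fit, not an SD of replicates. Of 86 members tested, 85 were higher in radial glia and none lower at an adjusted p below 0.05, whereas 32.9% of the 10782 genes tested were called higher. The median log2 fold change of the members was 1.24, with quartiles of 1.18 and 1.32, and that of all genes was -0.03. *rps20* gave 4581, 3591, and 3905 against 1440.0, 1563, and 1600.0 CPM (log2 fold change 1.52 ± 0.12, adjusted p = 3.18e-11). *rpl10a*, a protein of the large subunit, gave 1551, 991, and 1247 against 490.2, 443, and 556 (1.47 ± 0.12, adjusted p = 5.17e-11), and *rpl12*, at the base of the stalk, 1051, 733, and 1001 against 332, 336, and 387 (1.52 ± 0.12, adjusted p = 1.96e-11). In all of these, every radial glial sum was above every sum of mature neurons.

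A few members lay away from the others in that comparison. *rps27l*, a paralogue of *rps27* that p53 induces in human cells, gave 259, 346, and 327 against 61.7, 51.1, and 65.1 (2.51 ± 0.13, adjusted p = 1.25e-14), which lay 1.27 above the members' median. *rpl22l1*, the paralogue of *rpl22*, gave 163, 138, and 206 against 96.0, 125, and 153, and its log2 fold change of 0.59 ± 0.12 (adjusted p = 1.43e-04) was -0.65 relative to that median. *rpl31* at 0.92 ± 0.12 (adjusted p = 1.35e-07) and *rpl5a*, which binds the 5S ribosomal RNA, at 0.86 ± 0.11 (adjusted p = 2.25e-07) were also below it. *rps19bp1*, a binding partner of Rps19 rather than a ribosomal protein, rose by 0.72 ± 0.16 (adjusted p = 2.58e-04). The single member not called was the second gene listed as *rpl37* (ENSDARG00000076360), with 28.5, 20.9, and 25.2 CPM in radial glia and 19.9, 18.6, and 25 in mature neurons.

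**Figure D3:**
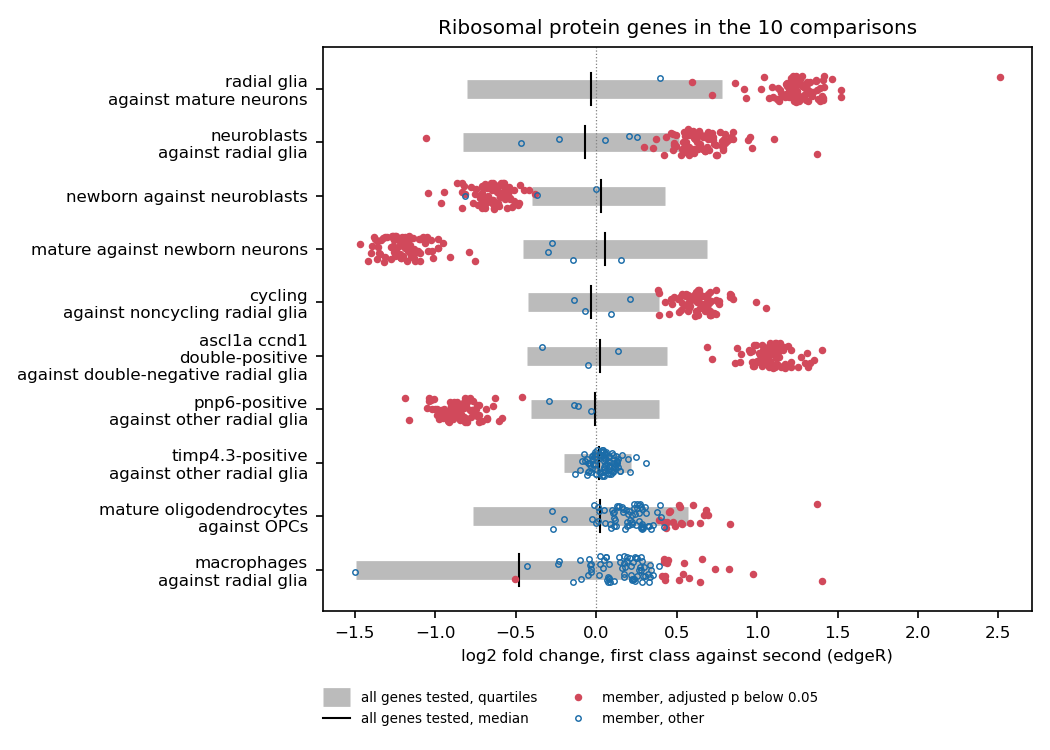
log2 fold change of each member (points, filled where the adjusted p was below 0.05) in the 10 comparisons, beside the quartiles (grey bars) and median (black lines) of all genes tested. Members form a compact group away from the median of all genes in 7 comparisons and lie on it for *timp4.3*-positive radial glia, and *rps27l* at 2.51 stands apart in the first.

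Neuroblasts, marked by *neurod4*, *nhlh2*, and *insm1a*, were compared with radial glia next. Cells that passed the S-phase or G2/M markers were left out of this class. Of 86 members, 80 were higher and 1 was lower, where 17.8% of 6946 genes were called higher and 23.4% lower. Median log2 fold changes were 0.63 for the members and -0.07 for all genes. *rplp2l*, a stalk protein, gave 4063, 2805, and 3227 against 1669, 1137, and 1519 CPM (1.11 ± 0.09, adjusted p = 2.10e-20). *rps12* gave 4098, 3566, and 3544 against 1944, 1538, and 1813 (0.97 ± 0.09, adjusted p = 3.54e-17) and *rps13* 2629, 2156, and 2275 against 1233, 942, and 1182 (0.96 ± 0.10, adjusted p = 4.24e-16), both of the small subunit. The largest rise was that of *rpl22l1*, with 436, 511, and 476 against 163, 138, and 206 (1.37 ± 0.14, adjusted p = 2.26e-15).

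The member that fell was *rps27l*, with 176, 151, and 147 against 259, 346, and 327 CPM in neuroblasts and radial glia (-1.06 ± 0.17, adjusted p = 8.89e-08). All neuroblast sums were below all radial glial ones. *rpl22* (0.30 ± 0.10), *rpl19* (0.35 ± 0.09), and *rpl7* (0.37 ± 0.09), all of the large subunit, rose least among those called, with adjusted p of 0.0121, 8.19e-04, and 4.09e-04, and each lost its call in DESeq2 with a fold change near the one given. With no filter on low counts they gave 0.13, 0.18, and 0.20, and with cells thinned before summing *rpl22* gave 0.19 and *rpl19* 0.17, none of them called. Without replicate 1 *rpl22*, at 0.30, was not called either. The 5 members that were not called were *rplp2* at 0.20, *rps27.2* at -0.23, *rpl7l1* at 0.25, *rps19bp1* at -0.47, and the second *rpl37* gene at 0.05.

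From neuroblasts to newborn pallial neurons, marked by *tbr1b* and *neurod2*, 81 of 84 members were lower and none higher, with 14.4% of 2604 genes called lower. Here the members had a median of -0.64 and all genes one of 0.03, and with stricter markers the members' median was -0.41. The largest falls were those of *rps27l*, at 86.4, 47.6, and 95.0 against 176, 151, and 147 CPM (-1.05 ± 0.28, adjusted p = 0.00131), *rplp2l*, at 2107, 1134, and 2049 against 4063, 2805, and 3227 (-0.95 ± 0.15, adjusted p = 1.90e-09), and *rpsa* (-0.97 ± 0.15, adjusted p = 9.66e-10), which also serves as a laminin receptor. *rplp2* (-0.38 ± 0.15, adjusted p = 0.0323), *rps15* (-0.42 ± 0.15, adjusted p = 0.0172), *rpl17* (-0.48 ± 0.15, adjusted p = 0.00731), and *rpl19* (-0.45 ± 0.14, adjusted p = 0.00835) fell least among those called. These 4 genes and *rps27l* lost their calls under several alternatives, all in the same direction. *rplp2* lost its call without any one of the replicates (-0.45, -0.27, and -0.46), *rps15* (-0.41 and -0.55) and *rpl19* (-0.47 and -0.55) without replicates 1 or 3, *rpl17* without replicate 3 (-0.55), and *rps27l* without replicate 2 (-0.82). In DESeq2 *rps27l* (-1.09), *rpl17*, *rps15*, and *rplp2* were not called, and with stricter markers *rpl17* (-0.29), *rpl19* (-0.21), and *rplp2* (-0.20) were not. Without the replicate block 46 members were called, the share of all genes called under that setting not being taken. The newborn share of UMIs in replicate 2, 10.7%, was well below the 16.6% and 15.2% of the others. In all 3 replicates the share was nonetheless lower than in neuroblasts.

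Mature neurons were lower again than newborn neurons in 82 of 86 members, with 11.0% of 8795 genes called lower. The members' median was -1.19 and that of all genes 0.06. *rps20* gave 1440.0, 1563, and 1600.0 against 5398, 3318, and 4530.1 CPM (-1.47 ± 0.17, adjusted p = 6.01e-09), and *rps15a* (-1.39 ± 0.17, adjusted p = 1.07e-08), *rpl12* (-1.42 ± 0.16, adjusted p = 2.03e-09), and *rpl18* (-1.40 ± 0.16, adjusted p = 7.59e-09) fell with it. *rps27.2* (-0.75 ± 0.16, adjusted p = 2.12e-04), *rpl5a* (-0.79 ± 0.17, adjusted p = 3.49e-04), *rps23* (-0.95 ± 0.17, adjusted p = 1.52e-05), near the decoding site, and *rpl7* (-0.91 ± 0.16, adjusted p = 1.97e-05) fell less than the median. Among the 4 members not called was *rps27l*, with 61.7, 51.1, and 65.1 against 86.4, 47.6, and 95.0 CPM (-0.30 ± 0.26), whose sums overlapped.

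Cycling radial glia carried more ribosomal protein UMIs than noncycling ones. Of 86 members, 82 were higher and none lower, beside 19.9% of 8631 genes called higher, with medians of 0.63 for the members and -0.04 for all genes. *rpl22l1* rose most, with 304, 335, and 425 against 163, 138, and 206 CPM (1.05 ± 0.09, adjusted p = 7.69e-19), then *rplp2l*, with 3644, 2247, and 2896 against 1669, 1137, and 1519 (0.99 ± 0.05, adjusted p = 6.09e-33), *rpl7l1* (0.85 ± 0.13, adjusted p = 1.62e-08), a factor of large subunit assembly, and *rps20* (0.84 ± 0.05, adjusted p = 2.53e-31). *rpl22* (0.38 ± 0.06, adjusted p = 1.92e-08), *rps26* (0.39 ± 0.06, adjusted p = 2.75e-08), *rplp2* (0.39 ± 0.05, adjusted p = 5.55e-10), and *rpl19* (0.43 ± 0.05, adjusted p = 1.97e-12) rose least among those called. Each of these lost its call without the replicate block, at 0.38, 0.38, 0.39, and 0.43. *rps27l* gave 339.9, 269, and 264 against 259, 346, and 327 (-0.14 ± 0.09, adjusted p = 0.235) with overlapping groups, and *rps27.2* gave 853, 731, and 918 against 775, 654, and 888 (0.09 ± 0.06, adjusted p = 0.25). Neither passed the test, and *rps19bp1* and the second *rpl37* gene did not either.

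Cycling cells were also compared by the glial markers and by phase. Those without glial markers exceeded cycling radial glia by 4.07 ± 0.643 percentage points, in 3 of 3 replicates. S-phase cells gave 24.9, 19.6, and 22.5% and G2/M-phase cells 23.8, 19.6, and 22.4%, a paired difference of -0.380 ± 0.607 points, G2/M being higher in 1 of 3 replicates. Their difference was thus within the spread between replicates. Cycling classes were deeper than noncycling radial glia, with medians of 2471 to 3250 UMIs per cell in cycling radial glia and 1647 to 1905 in the noncycling ones. The share after thinning differed by 6.47 ± 1.25 points, and the part of depth before thinning was not tested.

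Among noncycling radial glia, LY-treated cells can carry *ascl1a*, a proneural gene that Notch signaling restrains, and *ccnd1*, the cyclin of G1 progression. Cells were split by the presence of these 2 mRNAs after thinning to 1000 UMIs. Double-positive cells, 257 to 375 per replicate, gave 18.0, 14.2, and 17.2% of UMIs in ribosomal protein genes, and double-negative cells, 106 to 184 per replicate, 7.94, 7.30, and 9.04%. The groups did not overlap, and the ratio was 2.04 ± 0.20. Cells with *ccnd1* only stood at 14.7% ± 1.96 and with *ascl1a* only at 12.2% ± 1.64, the first being higher in each replicate. Even the double-negative cells were above mature neurons by 2.38 ± 0.654 points. Double-positive cells were shallower, with medians of 1605 to 1853 UMIs against 2024 to 2764. The part of depth before thinning in these shares and in the unthinned counts was not tested.

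In the test of single genes, 83 of 86 members were higher in double-positive cells and none lower, beside 16.3% of 5405 genes called higher. The members' median was 1.08 and that of all genes 0.02. *rplp2l*, with 2252, 1512, and 1951 against 749.8, 571, and 795 CPM (1.40 ± 0.11, adjusted p = 2.05e-25), and *rps20*, with 6028, 4643, and 5092 against 2189.8, 1926, and 1892 (1.36 ± 0.10, adjusted p = 4.68e-26), rose most, along with *rps26l* (1.33 ± 0.12, adjusted p = 1.08e-20) and *rpl5b* (1.32 ± 0.12, adjusted p = 4.51e-20). *rplp2* rose by less (0.69 ± 0.10, adjusted p = 2.63e-09), as did *rps27.2* (0.86 ± 0.11, adjusted p = 2.16e-11), *rps27a* (0.88 ± 0.11, adjusted p = 1.97e-12), which is made as a fusion with ubiquitin, and *rpl7l1* (0.72 ± 0.24, adjusted p = 0.0133). *rpl7l1* lost its call with cells thinned before summing (0.27), without replicate 2 (0.47), without the replicate block, and in DESeq2. Again *rps27l* was not called, with 295, 348, and 339 against 241, 318, and 319.9 (0.14 ± 0.13, adjusted p = 0.447).

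Radial glia were next divided by regional and state markers. *pnp6*-positive cells (*pnp6*, *lgals2a*, *vamp5*), described in the study as enriched caudally, had the lowest share of the subsets with more than 50 cells per replicate, 8.30, 7.25, and 9.36%. *gsx2*-positive cells, whose marker belongs to the dorsal subpallium, had 11.4, 9.98, and 10.9%. *timp4.3*-positive cells (*timp4.3*, *igfbp2a*), with astrocytic markers, had 13.1, 11.9, and 13.7%, and the remaining radial glia 20.3, 15.5, and 18.9%. The *pnp6* and *timp4.3* labels need 2 UMIs summed over the genes in brackets, so a cell may lack the gene that names its subset. The order of these 4 subsets was the same in each replicate, and *pnp6*-positive cells were below *gsx2*-positive cells by 2.48 ± 0.812 points and below *timp4.3*-positive ones by 4.58 ± 0.253. Subset markers were counted before thinning, and the subsets differed in depth. Median UMIs per cell were 2371 to 2919.5 in *pnp6*-positive, 1756 to 2170.5 in *gsx2*-positive, and 1746 to 1997.5 in *timp4.3*-positive cells. The remaining radial glia had 1348 to 1557. The part of depth in this order was not tested. Committing radial glia, which pass the neuroblast markers as well and numbered only 16, 9, and 15 cells, had 24.3, 20.2, and 22.6%, overlapping with neuroblasts. The *nkx2.1*-positive cells (10.8% ± 0.790, 7 of them in replicate 2) and the *zic2a*-positive cells (18.3% ± 3.55, 6 to 12 per replicate with 1000 UMIs) were too few to be placed in the order.

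Of 86 members, 82 were lower in *pnp6*-positive than in other radial glia and none higher, where 13.1% of 6393 genes were called lower. The members' median was -0.84 and that of all genes -0.01. *rplp2l* gave 880.2, 487, and 871 against 1826, 1410.3, and 1792 CPM (-1.16 ± 0.09, adjusted p = 3.93e-33), and *rpl12* (-1.05 ± 0.10, adjusted p = 3.64e-24), *rpl6* (-1.19 ± 0.10, adjusted p = 1.21e-30), and *rpl18* (-1.04 ± 0.09, adjusted p = 3.94e-28) of the large subunit also fell more than the median. *rplp2* (-0.46 ± 0.09, adjusted p = 1.82e-06), *rps27.2* (-0.59 ± 0.10, adjusted p = 4.36e-08), *rps10* (-0.60 ± 0.10, adjusted p = 1.78e-08), and *faua* (-0.63 ± 0.09, adjusted p = 3.33e-10), whose product is a fusion of a ubiquitin-like protein and a small subunit protein, fell less. Without the replicate block *rplp2* (-0.46) and *rps27.2* (-0.58) lost their calls. *rps27l* gave 228, 313, and 322 against 265, 359.7, and 329 (-0.11 ± 0.12, adjusted p = 0.525) and was not called, nor were *rpl7l1*, *rps19bp1*, and the second *rpl37* gene. The *pnp6*-positive cells were deeper, with medians of 2371 to 2920 UMIs against 1579 to 1776. The difference of 6.74 ± 0.707 points was taken after thinning. Radial glia that were deeper before thinning had a lower thinned share, as given above. The part of depth in this difference was not tested.

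For *timp4.3*-positive against other radial glia, no member passed the test with edgeR, 2 had an unadjusted p below 0.05, and DESeq2 called none either. Of all 6940 genes tested, 1.37% were called higher and 2.09% lower. The members' median was 0.05 and their quartiles -0.01 and 0.10. The thinned share was lower in *timp4.3*-positive cells by 1.34 ± 1.30 points, and thus of the other sign than this median. The median itself changed sign between settings. It was -0.11 with cells thinned before summing, -0.02 with total UMIs as library size, and -0.03 with no filter on low counts or without replicate 2. Under the other alternatives it stayed positive. Without thinning the replicates gave 13.1, 11.7, and 13.8% against 14.8, 10.8, and 13.4%, so that *timp4.3*-positive cells were higher in 2 of 3. *rps27.2* gave 794, 788, and 1045 against 764, 596, and 848 CPM (0.31 ± 0.10, adjusted p = 0.0789), and without replicate 1 a single member was called higher. The other radial glia hold the low *pnp6*-positive and *gsx2*-positive cells. Against the remaining radial glia alone, *timp4.3*-positive cells were lower by 5.39 ± 1.80 points in 3 of 3 replicates.

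The *ascl1a* and *ccnd1* states and the subsets crossed. Within *pnp6*-positive cells, double-positive ones gave 12.6, 9.37, and 12.2% and double-negative ones 6.75, 5.99, and 7.28%. Within *gsx2*-positive cells the values were 14.8, 11.9, and 13.0% and 7.30, 6.97, and 6.69%, and within the remaining radial glia 21.6, 16.4, and 20.4% and 9.39, 11.1, and 12.3%. Double-positive cells were higher in all 3 replicates of each subset, by ratios of 1.70 ± 0.154, 1.89 ± 0.166, and 1.81 ± 0.437. *timp4.3*-positive cells had 15, 13.0, and 14.6% and 7.80, 8.51, and 8.97%, the last replicate with only 9 double-negative cells. Double-positive *pnp6*-positive cells, at 11.4% ± 1.76, thus came up to double-negative cells of the remaining radial glia, at 10.9% ± 1.47, and overlapped with them. Cells with *ccnd1* only were above those with *ascl1a* only in every replicate of *timp4.3*-positive and remaining radial glia, but not of the other subsets. In replicate 3, *pnp6*-positive cells gave 8.64% (10 cells) and 9.84% (27 cells), and *gsx2*-positive cells 13.2% (10 cells) and 13.3% (6 cells). Whether the step between states differed between subsets was not tested.

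**Figure D4:**
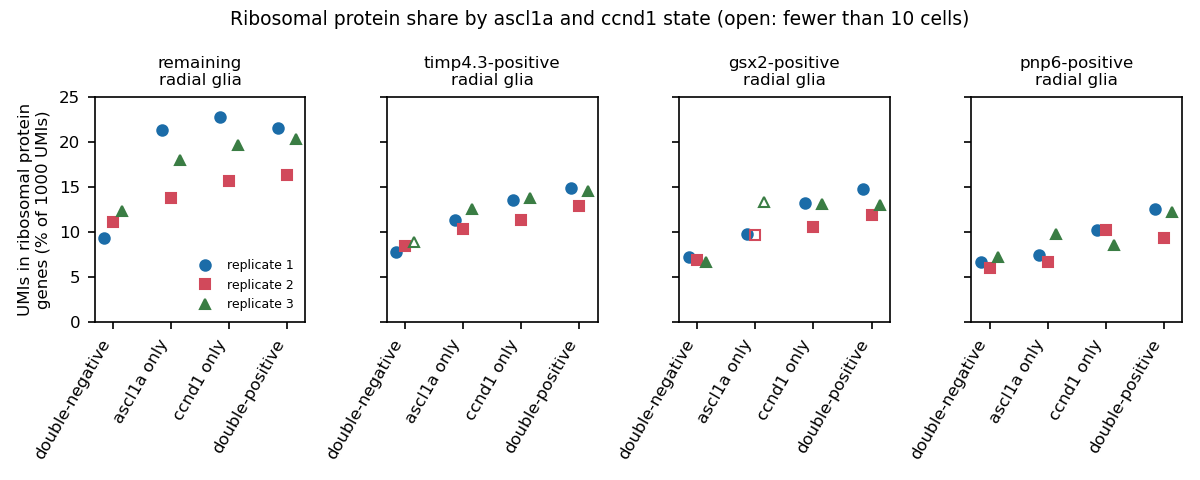
Percent of 1000 UMIs per cell in ribosomal protein genes (y axis) by presence of *ascl1a* and *ccnd1* mRNA in 4 subsets of noncycling radial glia, with a point per replicate and open symbols for fewer than 10 cells. In each subset double-positive cells lie above double-negative ones in every replicate, and *pnp6*-positive cells are lowest among double-positive cells.

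In the oligodendrocyte lineage the shares were low throughout, 3.34, 3.91, and 4.15% in OPCs and 5.32, 4.46, and 6.03% in mature oligodendrocytes, a paired difference of 1.47 ± 0.80 points. Of 85 members, 20 were higher in mature oligodendrocytes and none lower, where 23.0% of 3772 genes were called higher. This is near the share among all genes and no result about the members. The count was 6, 7, and 10 without replicates 1, 2, and 3, and it was 7 without the replicate block and 2 in DESeq2. With stricter markers it was 63, the members' median going from 0.25 to 0.54, where that of all genes was 0.05. The share of all genes called was not taken under these alternatives, so these counts are not read as results about the members. *rplp2* gave 1239, 989, and 1220.2 against 608, 576, and 648 CPM (0.83 ± 0.17, adjusted p = 1.55e-05) with every mature sum above every OPC sum. *rps27l* (0.68 ± 0.20, adjusted p = 0.00300), *rpl22* (0.67 ± 0.18, adjusted p = 9.58e-04), and *rpl26* (0.70 ± 0.22, adjusted p = 0.00563) were called as well, and each lost its call in DESeq2. *rps27l* was not called without replicate 1 (0.51) or 2 (0.57), nor *rpl26* without replicate 2 (0.60). OPCs were shallow, with medians of 1238 to 1366 UMIs against 2566 to 3257, and had a higher share in deeper cells, as given above.

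Macrophages, which carry *cd74a* and *c1q* genes, were compared with radial glia as a class outside the neural lineage. Of 86 members, 17 were higher and 1 lower, beside 12.7% and 22.8% of 7085 genes. The members' median was 0.22 and that of all genes -0.48, and with no filter on low counts the members' median turned to -0.06 and 4 members were called. The count was 14, 5, and 10 without replicates 1, 2, and 3, 8 without the replicate block, and 2 in DESeq2. It was 52 with stricter markers, where the members' median was 0.43 and that of all genes -0.30. For these alternatives, too, the share of all genes called was not taken. *rplp2* gave 4201, 2981, and 3099 against 1741, 1478, and 1779 CPM (0.97 ± 0.16, adjusted p = 2.85e-08). All its sums in macrophages were above those in radial glia. *rpl31* (0.82 ± 0.20, adjusted p = 1.87e-04) and *rps2* (0.74 ± 0.16, adjusted p = 5.12e-05) followed, without a call in DESeq2. *rps27.2* was the member that was lower, with 489, 561, and 610.1 against 775, 654, and 888 (-0.51 ± 0.19, adjusted p = 0.0281), and it lost its call in DESeq2 and without replicate 1 (-0.25) or 3 (-0.33).

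Zebrafish carry paralogues of several ribosomal proteins, and some of these did not keep a fixed ratio. Cell Ranger drops reads that fit more than a single gene, so near-identical paralogues may be undercounted, and the ratios describe only reads that could be told apart. *rplp2l* took 48.9, 43.5, and 46.1% of the UMIs of *rplp2* and *rplp2l* in radial glia, 60.3, 53.3, and 55.9% in cycling radial glia, and 66.4, 60.3, and 61.8% in cycling cells without glial markers. It took 33.1, 33.2, and 35.7% in macrophages and 31.0, 25.8, and 36.3% in mature oligodendrocytes. In cycling cells *rplp2l* was therefore the larger of the pair and in macrophages and mature oligodendrocytes the smaller, with no overlap between replicates. A majority of *rplp2l* was not particular to cycling cells, as neuroblasts had 61.5% ± 4.05 and newborn neurons 51.9% ± 4.66. Mature neurons had 45.5% ± 1.43 and OPCs 43.3% ± 1.47. Within radial glia its share went from 37.2% ± 2.55 in double-negative to 49.3% ± 2.84 in double-positive cells.

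Of the *rps27* genes, *rps27.1* kept near the members' median, at 1.38 between radial glia and mature neurons and 0.56 between neuroblasts and radial glia. *rps27.2* took 17.3% ± 1.56 of the UMIs of *rps27.1*, *rps27.2*, and *rps27l* in cycling cells without glial markers, 19.1% ± 2.07 in neuroblasts, and 33.3% ± 1.14 in mature neurons. *rps27l* took 2.86% ± 0.568 in newborn neurons, 10.9% ± 2.35 in radial glia, and 17.9% ± 0.622 in mature oligodendrocytes. In CPM, *rps27l* was 311 ± 45.8 in radial glia, 291 ± 42.4 in cycling radial glia, 277 ± 20.1 in mature oligodendrocytes, 239 ± 50.4 in macrophages, 158 ± 15.9 in neuroblasts, and 59.3 ± 7.32 in mature neurons. Its mean level was thus highest in radial glia and lowest in mature neurons, with neuroblasts below radial glia where most other members were above. As given above, its sums in cycling radial glia overlapped with those in noncycling ones, and its sums in newborn neurons with those in mature neurons.

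*rpl22l1* took 13.3, 14.0, and 15.8% of the UMIs of *rpl22* and *rpl22l1* in radial glia and 23.7, 28.1, and 27.5% in cycling cells without glial markers. The share was 23.5, 29.7, and 25.7% in neuroblasts and 10.7, 8.59, and 14.8% in mature oligodendrocytes. Newborn neurons had 25.4% ± 6.16, mature neurons 23.0% ± 3.55, OPCs 19.9% ± 3.83, and macrophages 14.1% ± 3.68. Classes with few ribosomal protein UMIs thus stood on both sides of radial glia. In mice Rpl22 protein represses *Rpl22l1*. Double-positive radial glia, at 13.8% ± 1.76, and double-negative ones, at 13.9% ± 1.45, differed by less than their SD, and cycling radial glia stood at 21.1% ± 3.49. *rpl5b* (58.9% to 71.3% of *rpl5a* and *rpl5b*) and *rps26l* (43.3% to 52.4% of *rps26* and *rps26l*) kept to these ranges of class means over the 9 classes.

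**Figure D5:**
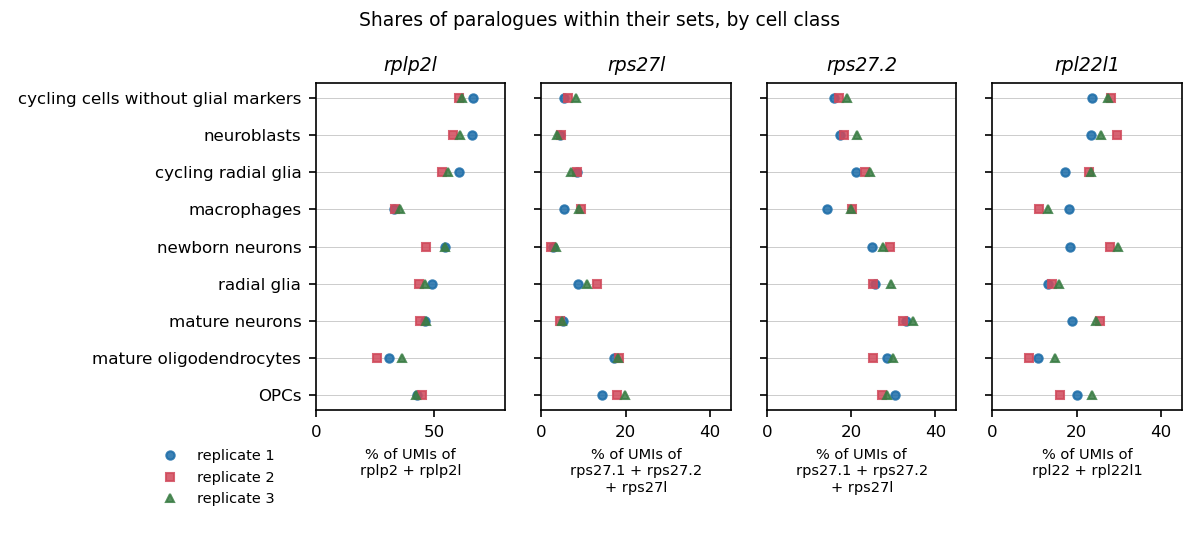
Percent of the UMIs of a paralogue set (x axes) taken by *rplp2l*, *rps27l*, *rps27.2*, and *rpl22l1* in 9 classes, a point per replicate. *rplp2l* goes from 31.0% in mature oligodendrocytes to 62.8% in cycling cells without glial markers, and *rps27l* is lowest in newborn neurons.

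Other genes of translation were read from a list of 30 translation factors and further terminal oligopyrimidine genes, of which 28 were listed in the files. Between double-positive and double-negative radial glia, 25 of 26 rose and 1 fell, with a median of 0.97, where 16.3% of all genes were called higher and 18.6% lower. Elongation factors *eef1a1l1* (1.07 ± 0.10, adjusted p = 1.43e-18) and *eef2b* (1.01 ± 0.13, adjusted p = 4.86e-12), the ribosome-bound *rack1* (0.98 ± 0.11, adjusted p = 2.30e-14), and *npm1a* (1.68 ± 0.21, adjusted p = 3.66e-12), a nucleolar protein of ribosome assembly, rose. The poly(A)-binding protein *pabpc1b* fell (-0.41 ± 0.16, adjusted p = 0.0349). Against mature neurons 21 of 28 were higher in radial glia and 3 lower, beside 32.9% and 33.3% of all genes. In cycling against noncycling radial glia 23 of 28 were higher and 1 lower, beside 19.9% and 19.2%. *pnp6*-positive radial glia were lower in 22 of 27 and higher in none, beside 13.1% and 15.5%. Mitochondrial ribosomal protein genes, 74 in all, had medians nearer to those of all genes. Of 66 tested, 1 was higher and 3 were lower in double-positive cells, with a median of 0.06, against the same 16.3% and 18.6% of all genes. Between radial glia and mature neurons 13 of 74 were higher and 5 lower, with a median of 0.04, against 32.9% and 33.3%. In cycling radial glia 19 of 73 were higher and 1 lower, with a median of 0.27, where 19.9% of all genes were called higher.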

How the data were processed

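Per the labels and methods, the authors aligned 10x 3′ v2 reads to GRCz11 and counted them with Cell Ranger 3.0.1. The deposited values are UMI counts per gene and cell, not normalized, 1 matrix per replicate. Cells with fewer than 200 genes, over 10% mitochondrial UMIs, or a residual beyond 3 SD of a loess fit (span 0.5) of genes on UMIs were removed. Scrublet's automatic limit marked 2, 1, and 0 cells and had not worked, so the highest doublet scores were removed at 0.8% per 1000 cells (975 cells), leaving 17842.

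Classes were set by UMI sums over marker lists, with a minimum sum and number of genes for each, and cells passing the markers of more than 1 lineage were left out. The members, marker lists, and gene lists were chosen with earlier results of these data known. Shares of UMIs were means over cells thinned to 1000 UMIs. UMIs were summed per replicate and class and tested with edgeR 4.0.16 (quasi-likelihood, TMM, R 4.3.3), with Benjamini-Hochberg adjustment over all genes that passed filterByExpr and a limit of 0.05. Every adjusted p is from this test unless DESeq2 1.42.0 is named. CPM values are relative to all UMIs of a sum, and a fold change is relative to the other genes, so neither gives molecules per cell. The replicate was a block because its number names the same library and fish in every class. Deviations of same-numbered sums from their class means correlated at r of 0.0527 to 0.595, with 27 of 30 pairs over 0.1.

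Named were the 5 members with most UMIs, up to 4 called members on either side of the members' median in each comparison (at least 100 UMIs), and the paralogue sets, of which some values are not reported here. Members named because they were not called, and the translation genes named, were chosen after their values were seen. The scripts were tested on simulated data with known changes and a spread set in advance, not taken from these data. Of genes changed by a log2 fold of 1, 15.7% were called for macrophages against radial glia. For mature against newborn neurons it was 22.4%, and the highest was 66.3%, for mature oligodendrocytes against OPCs. A member without a call may therefore still differ.

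Alternatives were total UMIs as library size, DESeq2, no filter on low counts, no replicate block, each replicate left out, thinning before summing, markers raised by 2 UMIs, doublets kept, and, for shares, 500 UMIs, no thinning, no mitochondrial UMIs, each cell weighted equally, and lower-case symbols only.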

Additional observations from a re-analysis of the deposited data

How the results depend on the processing

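Of the paired differences in the share of UMIs, 91 values under the alternatives moved by less than the SD between replicates and 9 moved by more. Neuroblasts exceeded radial glia by 7.99 percentage points at 500 UMIs per cell, 9.19 without thinning, 9.24 with markers raised by 2 UMIs, and 7.73 with lower-case symbols only. Newborn neurons against neuroblasts gave -9.69 points at 500 UMIs, -6.11 with raised markers, and -9.79 with each cell weighted equally, and macrophages exceeded radial glia by 1.23 points at 500 UMIs and 1.22 with each cell weighted equally. All of these kept their direction, and the cause of each shift was not tested. Of the counts of called members, 85 stayed within 1.5 times and 15 did not. The share of all genes called was taken with the main settings only and not under the alternatives. Without the replicate block, 46 members were called between newborn neurons and neuroblasts, 7 between mature oligodendrocytes and OPCs, and 8 between macrophages and radial glia. For mature oligodendrocytes against OPCs the count was 2 in DESeq2, 63 with raised markers, and 6 to 10 with a replicate left out. For macrophages against radial glia it was 2 in DESeq2, 4 with no filter on low counts, 11 with cells thinned before summing, 52 with raised markers, and 5 to 14 with a replicate left out, and the members' median turned to -0.063 with no filter. For *timp4.3*-positive against other radial glia it was 0 to 1 with a replicate left out, and the members' median changed sign under several alternatives, as given above. With total UMIs as library size the median of all genes shifted from -0.03 to -0.17 for radial glia against mature neurons. Of the log2 fold changes of named members, 587 kept direction and call and 62 lost the call with the same direction. Macrophages, with 36 to 75 cells per replicate, and neuroblasts, with 75 to 110, were the smallest of the 9 classes by cells in total.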
